A study of Mus musculus with 40 samples.

Results

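Elastin and 9 genes whose products assemble with it into elastic fibers were followed in EMT-6 tumors. The genes were Eln, Fbln1, Fbln2, Fbln5, Fbn1, Fbn2, Emilin1, Mfap4, Mfap5 and Lox, found by matching the Ensembl IDs of the count and TPM tables to gene symbols, and they are 10 of 39012 genes in those tables. They were chosen when results for bifunctional against anti-PD-L1 tumors were already known, in which Eln had differed. Values of these genes in that comparison are therefore given as a description, without a test.

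RNA of EMT-6 tumors was sequenced in 40 libraries. EMT-6 cells are a mammary carcinoma line from the mouse, and 250000 of them were placed in the mammary pad of Balb/C females aged 8 to 12 weeks, which keep their own immune system and stroma. The first dose followed 20 days after that, when tumors averaged roughly 400 mm3. The 4 groups of 10 libraries received intravenous doses on days 0, 1 and 2, and tumors were collected on day 6. The bifunctional group received 492 ug of an anti-PD-L1 antibody joined to a TGF-β trap, which binds and removes the cytokine TGF-β. The trap control group received 492 ug of the same kind of molecule with a mutated anti-PD-L1 part. The anti-PD-L1 group received 400 ug of the antibody alone. The isotype control group received 400 ug of an inactive anti-PD-L1. No group lacked an injected protein. Each library had a number of its own and was treated as a separate tumor. No label says how many mice, litters or dosing runs these were, so p-values measure the spread between these libraries.

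Elastic fibers give tissue its recoil. Fibroblasts and smooth muscle cells secrete tropoelastin, the product of Eln, and deposit it on microfibrils built from fibrillins. Fibulins, EMILINs and microfibril-associated proteins guide that deposition, and lysyl oxidase cross-links the tropoelastin into an insoluble core. Microfibrils also hold latent TGF-β in the matrix, and TGF-β is known to raise the synthesis of elastin and lysyl oxidase in cultured fibroblasts.

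The libraries fell into runs of sample numbers that differed in composition, and the labels name no batch. The structural RNAs Rn7s1, Rn7s2, mt-Rnr1 and mt-Rnr2 took 29.7% to 62.3% of counts in the 16 libraries C0449 to C0464 and 11.7% to 18.004% in the 24 libraries C0465 to C0488. The first run held 6 trap control and all 10 isotype control libraries, and the second held 10 bifunctional, 4 trap control and 10 anti-PD-L1 libraries. The runs were scaled, filtered and tested apart, so a CPM (a count scaled to the library total) is comparable within a run only. Total counts were 13495835 to 25108601 in the first run and 21987948 to 27658263 in the second. The 5 tumor epithelial markers (Krt8, Krt18, Krt19, Epcam and Cdh1) summed to between 113 and 310 CPM in the first run and 325 and 1011 CPM in the second. Each was detected in every group. The bifunctional libraries C0479 and C0484 stood apart by host tissue RNA. Skeletal muscle markers summed to 2123 CPM in C0479 and 4115 CPM in C0484, against a bifunctional median of 7.22 CPM, and C0479 also held 2536 CPM of skin keratinocyte markers.

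All 10 genes passed the filter on low counts in both runs. By TPM, which is divided by transcript length and so allows genes to be compared, Fbln2 had the highest median in every group and Lox the next. In bifunctional tumors the median was 100.05 TPM for Fbln2, 29.6 TPM for Lox, 15.2 TPM for Emilin1, 15.03 TPM for Mfap5 and 14.1 TPM for Fbn1. The medians of Mfap4, Eln and Fbln1 there were 4.74, 4.53 and 3.21 TPM, and those of Fbn2 and Fbln5 were 0.82 and 0.65 TPM. In anti-PD-L1 tumors Mfap4 had 0.995 TPM and stood behind Fbln1 at 1.39 TPM and Eln at 1.14 TPM. The lowest library value of Fbln2 in bifunctional tumors, 69.7 TPM, lay below the highest of Lox, 80.1 TPM, and the ranges of all other neighbours in that order overlapped as well.

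**Figure D1:**
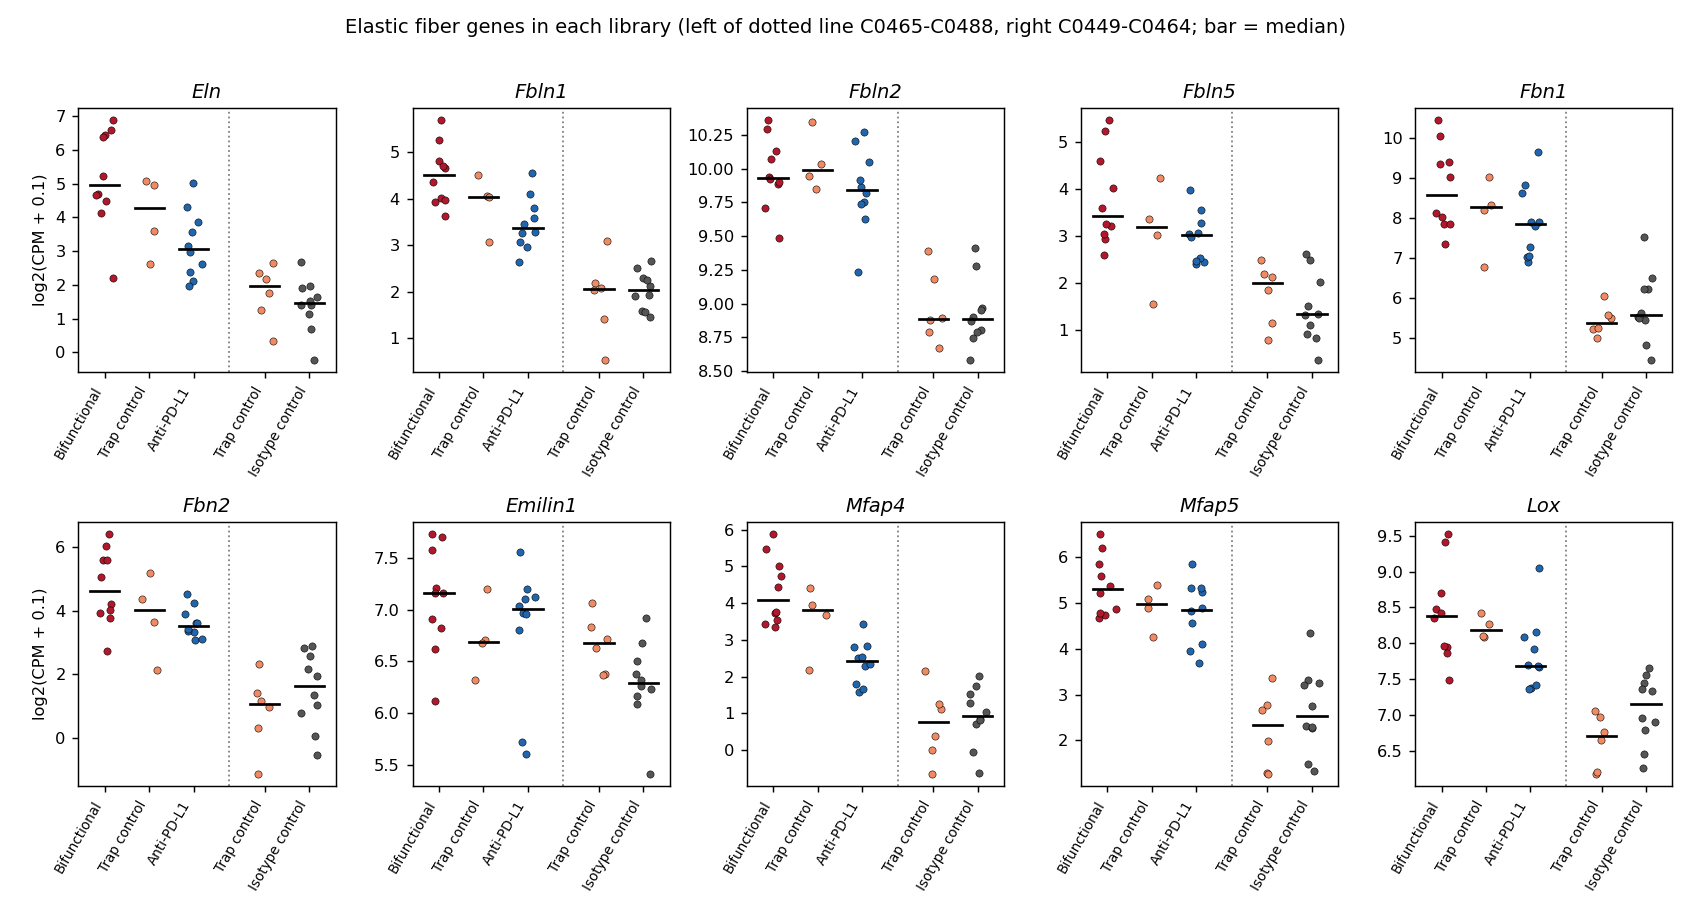
Level of each elastic fiber gene in each library as log2(CPM + 0.1), with a dot for a library and a bar for the group median. Left of the dotted line are the bifunctional, trap control and anti-PD-L1 libraries C0465 to C0488, and right of it the trap control and isotype control libraries C0449 to C0464; CPM scales differ between the sides. Mfap4 shows 9 of 10 bifunctional dots above every anti-PD-L1 dot, while Fbln2 and Emilin1 overlap broadly.

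Eln (ENSMUSG00000029675, mm10 chr5:134702593-134747323, minus strand), which encodes tropoelastin, had a lowest, median and highest value of 4.54, 31.4 and 118 CPM in bifunctional tumors. The 4 trap control libraries C0465 to C0468 had 12.1, 6.04, 33.4 and 31.3 CPM. In anti-PD-L1 tumors the lowest, median and highest values were 3.78, 8.31 and 32.6 CPM. Of 10 bifunctional libraries 5 lay above every anti-PD-L1 library and 9 above the median of that group, but C0482 was among the lowest of the run, so the groups overlapped. Library numbers follow treatment within this run, so a processing difference between them cannot be told apart from treatment. The mean was 51.7 ± 40.1 CPM with the bifunctional protein and 11.5 ± 8.99 CPM with anti-PD-L1 (SD, n = 10 each), and the fitted log2 difference was 2.17 (SE 0.50). The bifunctional minus trap control log2 difference was 1.32 (SE 0.68, edgeR adjusted p = 0.352), and that of trap control minus anti-PD-L1 was 0.86 (SE 0.62, edgeR adjusted p = 0.979). Neither passed the test. In bulk tumors, fewer cells that make a transcript and less of it per cell cannot be told apart.

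Eln was low throughout the first run. Its lowest, median and highest values were 1.17, 3.85 and 6.14 CPM in the 6 trap control tumors, against 0.759, 2.66 and 6.34 CPM in the 10 isotype control tumors. No trap control library exceeded the highest isotype control library, and 4 of 6 lay above the isotype control median. The log2 difference was 0.35 (SE 0.35, edgeR adjusted p = 0.551). These levels rest on 13 to 151 counts per library. In order of median TPM within the second run, Eln stood at 4.53 with the bifunctional protein, 2.85 in trap control tumors and 1.14 with anti-PD-L1, and the ranges of neighbours overlapped. In the first run it stood at 0.45 in trap control tumors and 0.25 in isotype control tumors, again with overlapping ranges. TPM carries the composition difference between the runs as CPM does, so groups were not ordered across them.

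Fibrillin-1 is the backbone of the microfibril, and fibrillin-2 is a related chain known best from developing tissue. Fbn1 (chr2:125300594-125507993, minus strand) had a lowest, median and highest value of 163, 400 and 1389 CPM in bifunctional tumors. The 4 trap control libraries C0465 to C0468 had 319, 108, 516 and 295 CPM. In anti-PD-L1 tumors it had 119, 228 and 798 CPM. Of 10 bifunctional libraries 2 lay above the highest anti-PD-L1 library, which was C0478. The log2 difference between bifunctional and anti-PD-L1 tumors was 0.92 (SE 0.42), and 0.40 (SE 0.38) without C0479 and C0484. Fbn2 (chr18:58008623-58210487, minus strand) had 6.55, 25.8 and 84.1 CPM in bifunctional tumors and 8.30, 11.4 and 22.8 CPM in anti-PD-L1 tumors. The trap control libraries C0465 to C0468 had 20.5, 4.28, 36.2 and 12.5 CPM of it. The groups overlapped, with 5 of 10 bifunctional libraries above every anti-PD-L1 library and 1 below all of them. Its log2 difference was 1.44 (SE 0.39), and 0.98 (SE 0.36) without C0479 and C0484.

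Both fibrillins of the first run had lower fitted values in trap control tumors, within the spread between libraries. Fbn1 had 31.6, 41.5 and 65.4 CPM in trap control tumors, against 21.7, 47.2 and 183 CPM in isotype control tumors, and its log2 difference was −0.57 (SE 0.36, edgeR adjusted p = 0.318). Fbn2 had 0.361, 2.00 and 4.96 CPM in trap control tumors, against 0.596, 3.08 and 7.30 CPM in isotype control tumors, with a log2 difference of −0.74 (SE 0.51, edgeR adjusted p = 0.368). The lowest Fbn2 library, the trap control library C0459, held 4 counts of it.

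Mfap4, a microfibril-associated glycoprotein that binds tropoelastin and fibrillin, had more bifunctional libraries above every anti-PD-L1 library than any of the other 9 genes, for which the number was 5 at most. Against trap control tumors of the second run it had 5 above the highest, the same number as Eln, Fbln1 and Fbn1. Mfap4 (chr11:61485431-61488900, plus strand) had a lowest, median and highest value of 10.2, 17.5 and 58.3 CPM in bifunctional tumors. The 4 trap control libraries C0465 to C0468 had 15.4, 4.41, 21.0 and 12.7 CPM. In anti-PD-L1 tumors it had 2.90, 5.26 and 10.6 CPM. Of 10 bifunctional libraries 9 lay above every anti-PD-L1 library, as did 3 of the 4 trap control libraries. The mean was 24.2 ± 16.4 CPM with the bifunctional protein and 5.50 ± 2.32 CPM with anti-PD-L1 (SD, n = 10 each), a fitted log2 difference of 2.14 (SE 0.35). It was 1.81 (SE 0.32) without C0479 and C0484. The trap control minus anti-PD-L1 difference was 1.28 (SE 0.42), with an unadjusted p under 0.05 but an edgeR adjusted p = 0.768 over 15704 genes. Mfap4 did not separate the groups of the first run, with 0.541, 1.65 and 4.37 CPM in trap control tumors and 0.555, 1.83 and 3.92 CPM in isotype control tumors (log2 difference −0.13, SE 0.41, edgeR adjusted p = 0.877).

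Mfap5, which binds fibrillins, differed less. Mfap5 (chr6:122505845-122529290, plus strand) had 25.5, 39.2 and 90.2 CPM as its lowest, median and highest value in bifunctional tumors, against 12.8, 28.8 and 57.8 CPM in anti-PD-L1 tumors. Trap control libraries of this run had 33.7, 19.0, 42.1 and 29.6 CPM, inside the anti-PD-L1 range. The log2 difference of bifunctional and anti-PD-L1 tumors was 0.59 (SE 0.27), and 0.29 (SE 0.25) without C0479 and C0484. Libraries C0449 to C0464 had 2.31, 5.06 and 10.1 CPM in trap control tumors and 2.43, 5.78 and 20.1 CPM in isotype control tumors (log2 difference −0.52, SE 0.42, edgeR adjusted p = 0.454).

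The fibulins are glycoproteins that bridge tropoelastin, microfibrils and basement membranes, and fibulin-5 is required for elastic fiber assembly in mice. The sequences before the starts of Fbln1 and Fbln5 are shown because both genes had the same fitted difference between bifunctional and anti-PD-L1 tumors, 1.07 on the log2 scale. They are the 250 bases before the first start that RefSeq lists for each gene (GRCm38.p6), 5′ to 3′ on the gene's strand, and capitals mark CAGAC or its reverse complement GTCTG, the short element that SMAD proteins of the TGF-β pathway bind. The windows are chr15:85205699-85205948 on the plus strand for Fbln1 and chr12:101819120-101819369 on the minus strand for Fbln5.
Fbln1: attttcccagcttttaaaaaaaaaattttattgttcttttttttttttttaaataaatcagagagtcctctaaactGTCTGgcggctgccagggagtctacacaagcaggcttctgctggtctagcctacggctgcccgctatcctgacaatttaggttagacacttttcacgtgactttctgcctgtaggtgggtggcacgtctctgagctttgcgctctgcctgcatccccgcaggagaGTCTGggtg
Fbln5: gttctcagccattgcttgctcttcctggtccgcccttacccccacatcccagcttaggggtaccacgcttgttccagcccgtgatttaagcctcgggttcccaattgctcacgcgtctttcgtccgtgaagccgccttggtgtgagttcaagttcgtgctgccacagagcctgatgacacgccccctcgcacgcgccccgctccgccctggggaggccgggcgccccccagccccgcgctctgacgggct
The Fbln1 window held 2 matches and the Fbln5 window 0, and 42.1% of 27025 such windows held at least 1. The Fbln5 window held 2 matches to GGGCGG or CCGCCC, the GC box, which 32.9% of windows contained. Entries were used for 5 of the 10 genes. The windows of the other 3, Emilin1, Fbln2 and Fbn1, lay wholly inside the gene positions used here. Emilin1 had 2 matches to the SMAD element there and Fbln2 and Fbn1 had 0, so these are not counts of sequence before the gene.

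Fbln1 (chr15:85205949-85286535, plus strand) had a lowest, median and highest value of 12.4, 22.8 and 51.4 CPM in bifunctional tumors, against 6.12, 10.3 and 23.4 CPM in anti-PD-L1 tumors. Trap control libraries of this run had 16.5, 8.34, 22.6 and 16.3 CPM. Every bifunctional library (10 of 10) exceeded the median of the anti-PD-L1 group, and 5 exceeded its highest library. The log2 difference was 1.07 (SE 0.26), and 0.76 (SE 0.23) without C0479 and C0484. Fbln5 (chr12:101746565-101819055, minus strand) had 5.95, 10.7 and 43.8 CPM in bifunctional tumors, against 5.18, 7.96 and 15.7 CPM in anti-PD-L1 tumors. Trap control libraries of this run had 10.1, 2.82, 18.8 and 8.07 CPM of it. Its 4 bifunctional libraries above the anti-PD-L1 range included C0479, the highest. The log2 difference of 1.07 (SE 0.37) was 0.50 (SE 0.30) without C0479 and C0484.

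Fbln2 (chr6:91212455-91272540, plus strand) was the exception among fibulins. It had 719, 976 and 1313 CPM as lowest, median and highest value in bifunctional tumors. The trap control libraries C0465 to C0468 had 1051, 1302, 922 and 985 CPM, and anti-PD-L1 tumors had 603, 917 and 1235 CPM. The groups overlapped broadly. Of 10 bifunctional libraries 2 lay above every anti-PD-L1 library and 8 above the median of that group. All 4 trap control libraries lay above that median as well. The log2 differences were 0.12 (SE 0.12) for bifunctional minus anti-PD-L1 and −0.07 (SE 0.15, edgeR adjusted p = 0.837) for bifunctional minus trap control. No fibulin of the first run separated trap control from isotype control tumors, with log2 differences of 0.01 (SE 0.27) for Fbln1, 0.04 (SE 0.13) for Fbln2 and 0.27 (SE 0.33) for Fbln5 and edgeR adjusted p values of 0.992, 0.883 and 0.636. Fbln1 had 1.35, 4.05 and 8.37 CPM there in trap control tumors and 2.66, 3.997 and 6.19 CPM in isotype control tumors. Fbln2 had 407, 473.6 and 671 CPM in trap control tumors, against 383, 472.6 and 680.1 CPM in isotype control tumors. Fbln5 had 1.62, 3.90 and 5.55 CPM in trap control tumors, against 1.19, 2.43 and 6.04 CPM in isotype control tumors.

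Emilin1 (chr5:30913402-30921277, plus strand) encodes a glycoprotein at the interface of elastin and microfibrils that limits TGF-β processing in mice. It had 69.5, 143 and 212 CPM as lowest, median and highest value in bifunctional tumors, against 48.4, 128 and 188 CPM in anti-PD-L1 tumors. Trap control libraries of this run had 104, 79.9, 103 and 147 CPM. The log2 difference of bifunctional and anti-PD-L1 tumors was 0.26 (SE 0.22). Libraries C0449 to C0464 had 82.8, 102 and 134 CPM in trap control tumors, against 42.5, 78.2 and 121 CPM in isotype control tumors. All 6 trap control libraries lay above the isotype control median, yet the log2 difference of 0.34 (SE 0.16) did not pass (edgeR adjusted p = 0.187).

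Lox (chr18:52516067-52529867, minus strand) encodes lysyl oxidase, the cross-linking enzyme. It had 180, 334 and 734 CPM as lowest, median and highest value in bifunctional tumors, against 165, 205 and 532 CPM in anti-PD-L1 tumors. The trap control libraries C0465 to C0468 had 271, 307, 344 and 274 CPM, all above the anti-PD-L1 median. The log2 difference of bifunctional and anti-PD-L1 tumors was 0.62 (SE 0.24), and 0.28 (SE 0.20) without C0479 and C0484. In the first run Lox had 72.2, 104 and 133 CPM in trap control tumors, lower by median than in isotype control tumors, at 76.7, 143 and 201 CPM. The second run holds no isotype control, so the orders of the runs rest on different comparisons. None of the 6 trap control libraries lay above the isotype control median, but the log2 difference of −0.46 (SE 0.20) did not pass (edgeR adjusted p = 0.159).

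**Figure D2:**
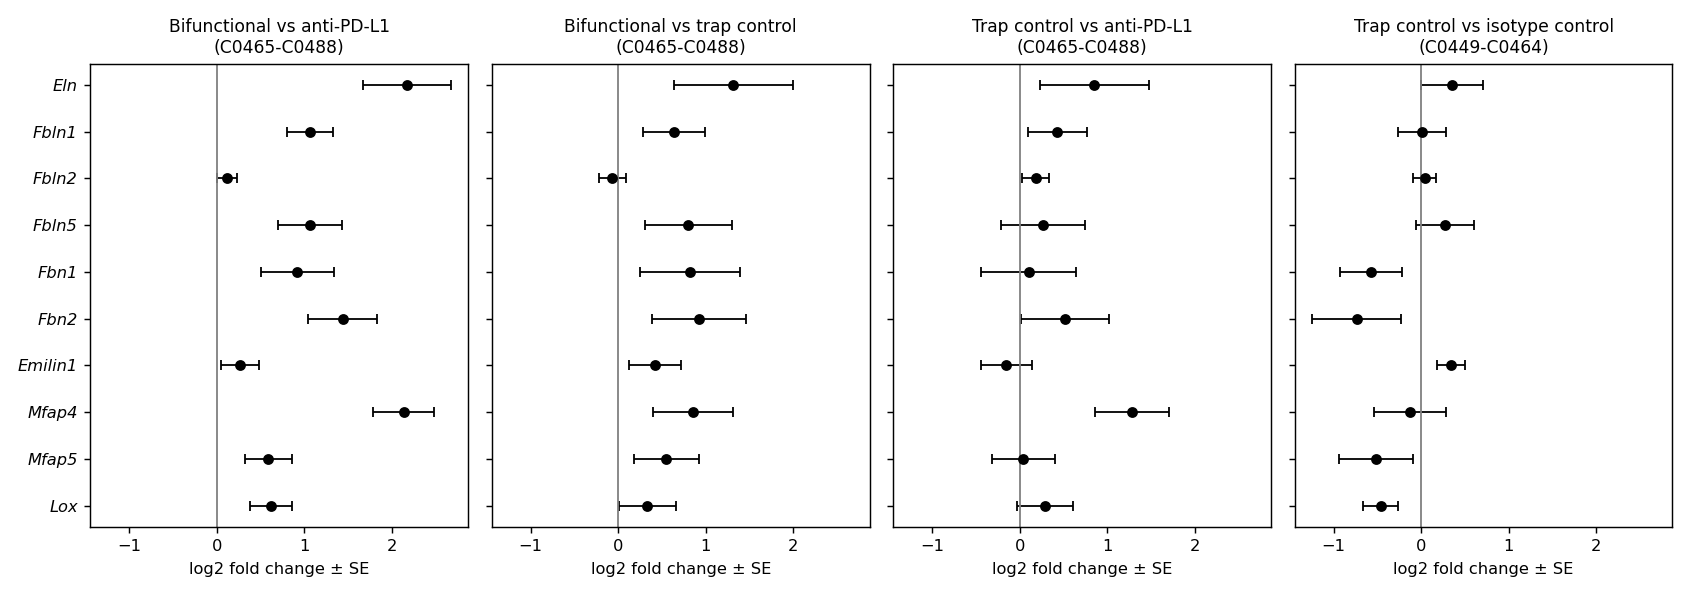
Log2 fold change of each elastic fiber gene with its SE in each comparison, from bifunctional against anti-PD-L1 on the left to trap control against isotype control on the right. The first 3 panels are libraries C0465 to C0488 and share groups; Eln and Mfap4 reach 2.17 and 2.14 in the first panel, and the values of the last panel lie between −0.74 and 0.35.

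Over all 10 genes, the trap control comparison with isotype control asked what the TGF-β trap does without PD-L1 blockade. edgeR called 0 of 10 in libraries C0449 to C0464, where 7.34% of 14183 genes were called, 3.19% higher and 4.15% lower. At an unadjusted p under 0.05 there were 2 of 10, Lox and Emilin1, beside 3718 of the 14183 genes, and DESeq2 called 0. The median log2 difference of the 10 was −0.06, beside 0.02 over all genes tested, with 5 positive. Trap control against anti-PD-L1 in libraries C0465 to C0468 and C0469 to C0478 gave 0 of 10, where 0.0127% of 15704 genes were called. There 1 of 10, Mfap4, had an unadjusted p under 0.05, beside 772 of the 15704 genes, and DESeq2 called 0, with a median of 0.28 beside −0.01 over all genes. Bifunctional against trap control gave 0 of 10, where 0.00637% were called, with 0 of 10 at an unadjusted p under 0.05 beside 2427 of 15704 genes, 0 by DESeq2 and a median of 0.72 beside 0.03. After Eln, the largest fitted log2 differences there were 0.92 (SE 0.54) for Fbn2, 0.85 (SE 0.46) for Mfap4, 0.82 (SE 0.57) for Fbn1 and 0.80 (SE 0.50) for Fbln5, and 9 of 10 were positive. Those of trap control minus anti-PD-L1 were 0.52 (SE 0.50) for Fbn2, 0.43 (SE 0.34) for Fbln1 and between −0.15 for Emilin1 and 0.29 for Lox in the 6 genes other than these, Eln and Mfap4. In bifunctional against anti-PD-L1 tumors, the comparison known when the genes were chosen, the fitted log2 differences lay between 0.12 for Fbln2 and 2.17 for Eln, and no call is read from them. These 3 comparisons share their bifunctional, trap control or anti-PD-L1 libraries and are not independent of each other.

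The fitted differences between bifunctional and anti-PD-L1 tumors varied with the libraries included. Without C0479 and C0484 they were 1.94 (SE 0.52) for Eln and 1.81 (SE 0.32) for Mfap4. With scores of skeletal muscle, skin keratinocyte and adipocyte markers as covariates they were 1.58 (SE 0.51) for Eln and 1.64 (SE 0.32) for Mfap4, and between 0.18 for Fbln2 and 0.72 for Fbn2 in the other 8 genes. When single libraries of these groups were left out in turn, Eln lay between 1.95 and 2.51, Mfap4 between 1.89 and 2.29 and Fbln5 between 0.80 and 1.22. Leaving out the anti-PD-L1 library C0478 gave the highest values for Fbn1, Mfap5 and Lox, at 1.24, 0.74 and 0.82, and for Fbln1 and Fbln5, at 1.23 and 1.22.

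Levels of these genes varied together within groups. After group means were subtracted, the 45 pairs had a median Spearman rho of 0.49 over the 16 libraries of the first run and 0.66 over the 24 of the second. Fbn1 and Fbn2 had rho 0.87 and 0.93, and Fbn1 and Mfap5 0.87 and 0.90. Fbln2 and Emilin1 stood apart, with a median rho to the other genes of −0.11 and 0.05 for Fbln2 and −0.04 and 0.05 for Emilin1. These are descriptions across libraries that share depth, scaling and tissue composition. Among 11508 other genes with a mean of at least 1 CPM in each run, those most like Eln by the smaller of the rho of the runs were Fbn2 at 0.77, Nid1 at 0.75, Piezo2 at 0.74, Nhsl2 at 0.73, Cilp and Dchs1 at 0.72, and Col1a1 and Grb10 at 0.71.

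**Figure D3:**
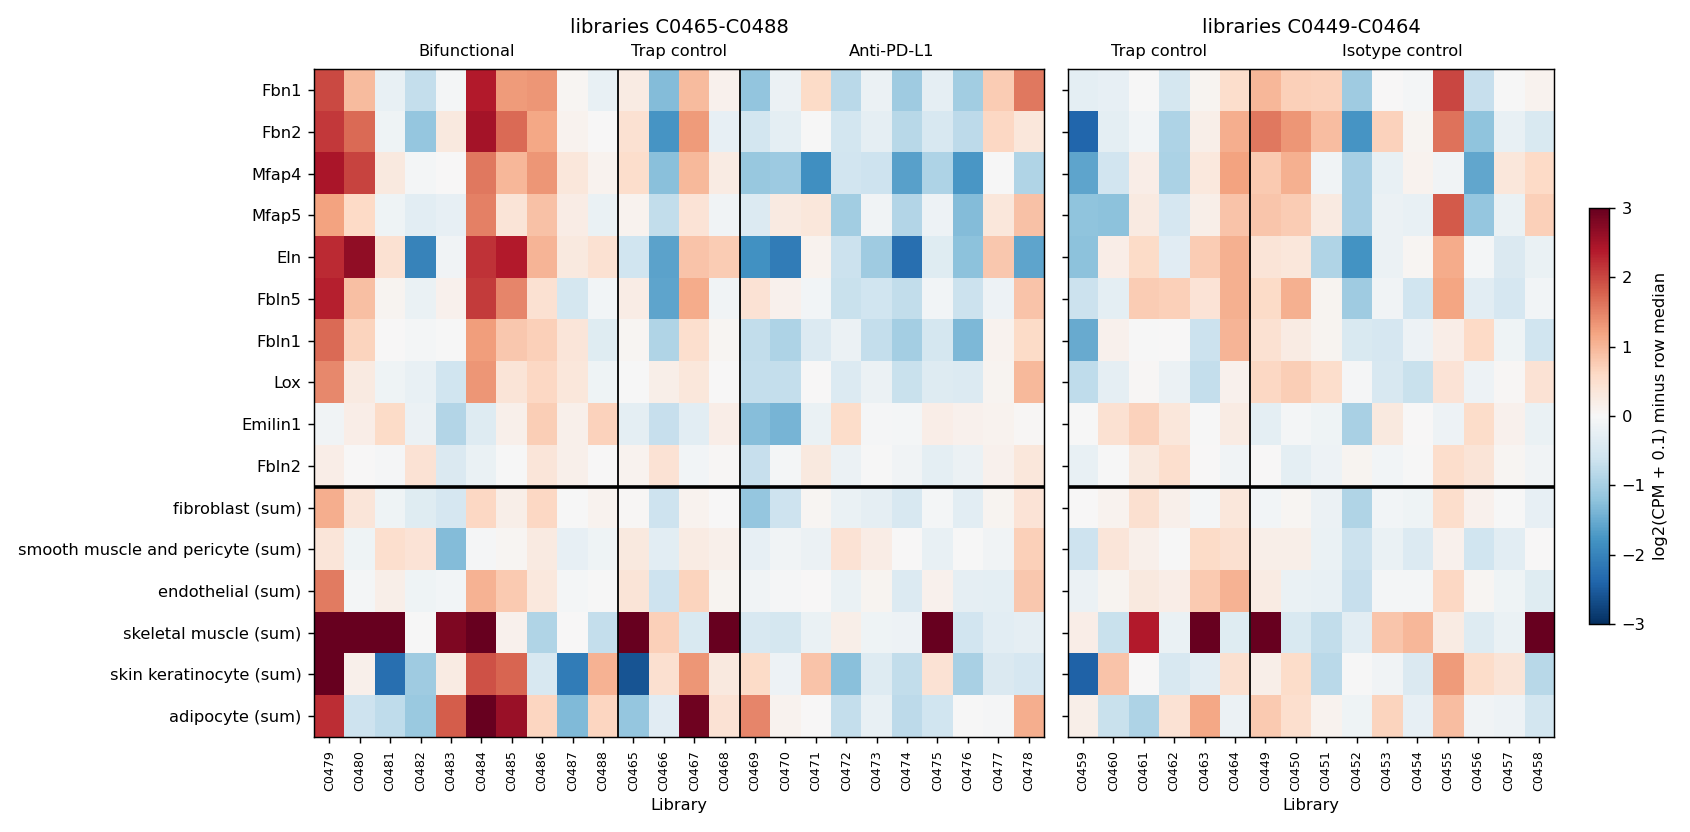
Elastic fiber genes (above the thick line) and summed marker lists (below it) in each library, as log2(CPM + 0.1) minus the row median within a run, with the color scale cut at both ends. Columns are libraries grouped by treatment. Fbn1, Fbn2, Mfap4, Mfap5, Eln and Fbln5 lie above their medians together in the bifunctional libraries C0479, C0480, C0484, C0485 and C0486. These genes also do so in the trap control library C0467. In the first run they do so in isotype control C0449 and C0450 and trap control C0463 and C0464. Fbln2 is near its median throughout.

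Host tissue RNA differed among the tumors with the most Eln. Its 4 highest values in the second run were 118 CPM in C0480, 96.5 CPM in C0485, 87.8 CPM in C0479 and 83.0 CPM in C0484, all bifunctional. C0480 had 131 CPM of the 9 skeletal muscle markers, above the bifunctional median of 7.22 CPM, with 9.20 CPM of the 7 skin keratinocyte markers and 52.2 CPM of the 8 adipocyte markers. C0485 had 1.89 CPM of muscle markers and 27.97 CPM of skin keratinocyte markers, but 482.5 CPM of adipocyte markers, where the bifunctional median was 125 CPM and C0479 had 374 CPM. Skeletal muscle markers summed to between 0.866 and 4115 CPM in bifunctional tumors, 1.23 and 383 CPM in trap control tumors of the run and 1.11 and 267 CPM in anti-PD-L1 tumors. Skin keratinocyte markers spanned 1.64 to 2536 CPM, 1.28 to 20.9 CPM and 3.40 to 14.9 CPM in the same groups, with Lor at 0 in all anti-PD-L1 libraries. Adipocyte markers (8 genes) spanned 32.1 to 1527 CPM, 35.9 to 606 CPM and 46.7 to 223 CPM. In the first run the trap control library C0463 had 6394 CPM of muscle markers and 5.02 CPM of Eln. That Eln value lay above the medians of trap control (3.85 CPM) and isotype control tumors (2.66 CPM). It was below the highest isotype control library, at 6.34 CPM. Muscle markers there spanned 0.400 to 6394 CPM in trap control tumors and 0.375 to 93.01 CPM in isotype control tumors. Skin keratinocyte markers spanned 0.0902 to 1.74 CPM with Krt1, Lor and Krtdap at 0 in trap control tumors, and 0.477 to 2.39 CPM with Krtdap at 0 in isotype control tumors.

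The summed level of 11 fibroblast markers, none at 0, moved with most of these genes in the second run and less closely with several of them in the first. It spanned 9798 to 29334.5 CPM in bifunctional tumors, 8943 to 14914 CPM in trap control tumors and 6155 to 18352 CPM in anti-PD-L1 tumors, with medians of 15269.5, 14002 and 11771 CPM. In the first run it spanned 6198 to 9068 CPM in trap control tumors and 3464 to 9236 CPM in isotype control tumors. With group means subtracted, rho with it in the first and second run was 0.59 and 0.74 for Eln, 0.34 and 0.89 for Fbn1, 0.48 and 0.81 for Fbn2, 0.23 and 0.75 for Mfap4 and 0.42 and 0.78 for Mfap5. It was 0.39 and 0.85 for Lox, 0.68 and 0.83 for Fbln1, 0.62 and 0.60 for Fbln5, 0.61 and 0.31 for Emilin1 and 0.36 and 0.25 for Fbln2. The median log2 difference of the 11 markers in bifunctional against trap control tumors was 0.69, beside 0.72 for the 10 genes. In bifunctional against anti-PD-L1 tumors these medians were 0.74 and 0.99, and all 11 markers were positive in both comparisons. In trap control against anti-PD-L1 tumors they were 0.06 and 0.28, and against isotype control tumors −0.14 and −0.06. The part of fibroblast RNA in the group differences was not tested. Eln had rho 0.84 and 0.51 with the sum of 7 endothelial markers in the first and second run, 0.76 and 0.12 with 9 smooth muscle and pericyte markers and 0.66 and 0.36 with 7 macrophage markers. Other genes also moved with these sums. In the same order of runs, rho with smooth muscle and pericyte markers was 0.83 and 0.25 for Fbn1 and 0.81 and 0.20 for Fbn2. It was 0.76 and 0.35 for Mfap4 and 0.77 and 0.14 for Mfap5. Fbln5 had rho 0.61 and 0.85 with endothelial markers and 0.45 and 0.73 with adipocyte markers. The anti-PD-L1 library C0478 had the highest fibroblast sum of its group and the highest Fbn1, Lox, Mfap5, Fbln1, Fbln2 and Fbln5, but only 6.09 CPM of Eln. Its ratio of Eln to Fbn1 TPM, 0.0296, was the lowest of its group, where the median was 0.182, and the ratio reached 0.871 in C0480.

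**Figure D4:**
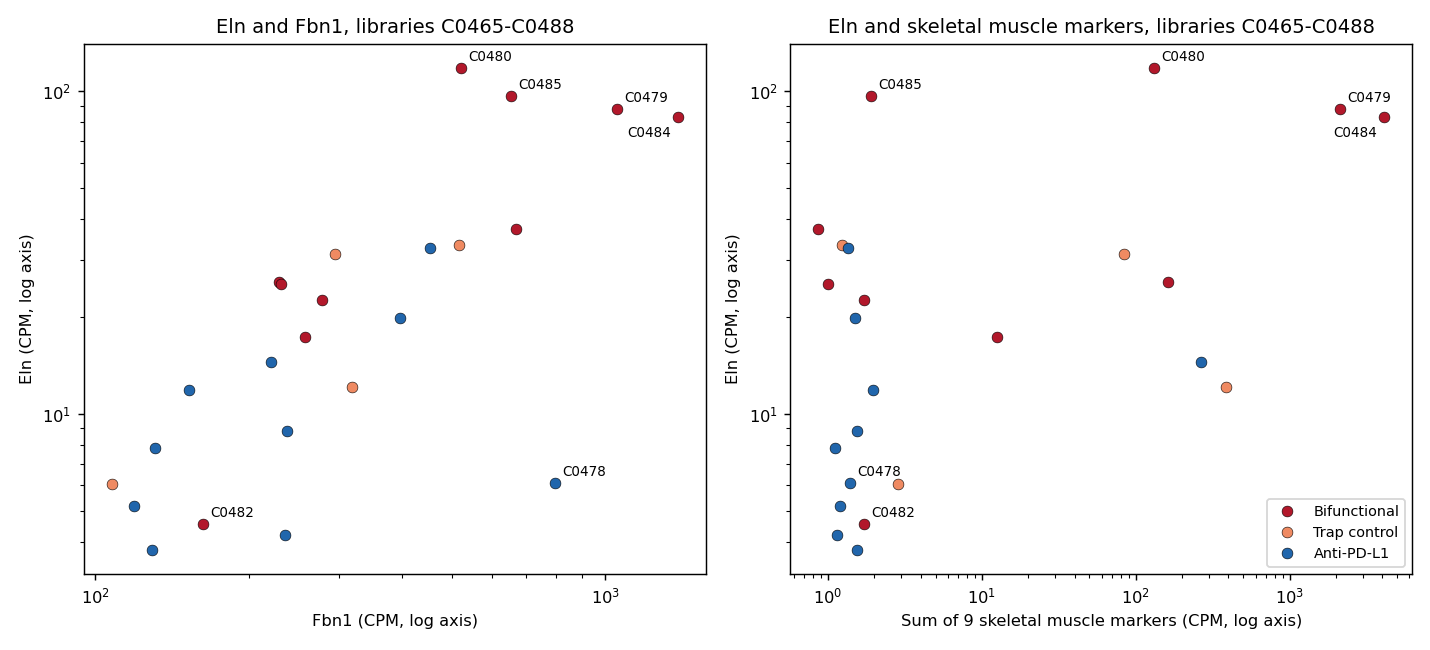
Eln in the 24 libraries C0465 to C0488 against Fbn1 (left) and against the sum of 9 skeletal muscle markers (right), all in CPM on log axes, with a dot for a library colored by group. C0480 and C0485 have the highest Eln at 118 and 96.5 CPM with 131 and 1.89 CPM of muscle markers, and C0478 has high Fbn1 with low Eln.

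The trap control group lay in both runs, so the run could be compared within a treatment. In a fit of all 40 libraries the first run minus the second was −2.27 (SE 0.62) for Fbn2, −2.02 (SE 0.51) for Mfap4, −1.99 (SE 0.56) for Fbn1, −1.76 (SE 0.47) for Mfap5, −1.66 (SE 0.64) for Eln, −1.12 (SE 0.38) for Fbln1 and 0.75 (SE 0.29) for Emilin1, on the log2 scale, and these 7 were called. Lox at −0.73 (SE 0.33), Fbln5 at −0.65 (SE 0.51) and Fbln2 at −0.25 (SE 0.17) were not. Between these runs 49.9% of 16174 genes were called, and isotype control tumors cannot be compared with anti-PD-L1 or bifunctional tumors apart from this difference.

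Other genes of the pathway were taken from lists that were likewise chosen with results known. In bifunctional against anti-PD-L1 tumors 25.6% of 15704 genes were called, 12.4% higher and 13.1% lower, and the counts of these short lists stand beside those shares as a description. Of 19 other elastic fiber and microfibril components 7 were called higher and 0 lower in that comparison, with a median log2 difference of 0.44 beside 0.01 over all genes. They include Adamtsl2 at 2.27 (SE 0.55), a secreted protein that binds LTBP1 and fibrillin, and Bgn at 1.04 (SE 0.26), the proteoglycan biglycan. Adamtsl4, a fibrillin-binding relative, was at 0.44 (SE 0.12), and Ltbp3, a latent TGF-β binding protein, at 0.43 (SE 0.13). Of 4 other lysyl oxidases 1 was called lower, Loxl4 at −0.43 (SE 0.09). That call was lost by limma with log2(TPM + 1) at −0.12 (adjusted p = 0.482) and with log2(TPM + 0.1) at −0.14 (adjusted p = 0.491). Of 7 measured elastin-degrading proteases 1 was called higher, a count near the share of all genes, and this was the gelatinase Mmp2 at 0.85 (SE 0.24). Of 8 receptors 2 were called higher, Itga9 at 0.59 (SE 0.16) and Ctsa at 0.26 (SE 0.08).

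Most of these calls in bifunctional against anti-PD-L1 tumors were lost without C0479 and C0484 or with host tissue scores as covariates, and so were most calls over all genes, which numbered 760 without these libraries and 816 with the scores, against 4014 otherwise. Without C0479 and C0484, Adamtsl2 at 1.56, Bgn at 0.79, Ltbp3 at 0.47, Mmp2 at 0.66, Itga9 at 0.39 and Ctsa at 0.23 were not called, and Ctsa, at 0.22, was not called without C0479 alone. With host tissue scores as covariates Adamtsl2 at 1.29, Bgn at 0.69, Adamtsl4 at 0.42, Mmp2 at 0.59, Itga9 at 0.31 and Ctsa at 0.21 were not called. Adamtsl4 was also not called by limma with log2(TPM + 1) at 0.32 (adjusted p = 0.0616) or log2(TPM + 0.1) at 0.61 (adjusted p = 0.06399), and neither it nor Ltbp3, both at 0.47, was called with runs pooled.

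In the other comparisons these lists, with 15 of 19 components and 6 of 9 proteases measured in the first run, had 0 called genes except Itgav, the integrin αv subunit that also activates latent TGF-β, which fell by 0.37 on the log2 scale in trap control against isotype control tumors (SE 0.09, edgeR adjusted p = 0.0261). That call was lost without the trap control library C0459 (edgeR adjusted p = 0.0504), with no filter (edgeR adjusted p = 0.0515), with host tissue scores as covariates (edgeR adjusted p = 0.0925) and by limma with log2(TPM + 1) (adjusted p = 0.998) and log2(TPM + 0.1) (adjusted p = 0.999).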

How the data were processed

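The authors deposited expected counts and TPM for 40 libraries. Per the labels' protocols, snap-frozen tumors gave total RNA that was depleted of ribosomal RNA and randomly primed. The mm10 genome with Bowtie2 2.3.1 and RSEM 1.2.31 is named in the submitters' processing notes, roles unstated. The deposited estimated counts were not whole in 14.0% of values and were rounded. The deposited TPM are divided by transcript length. GENCODE M21 gave a symbol for 37607 of 39012 IDs (96.4%). Counting strand was not given in the sources used here.

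Each run of libraries was fitted by edgeR 4.0.16 in R 4.3.3 with TMM scaling, edgeR's own low-count filter and a two-sided quasi-likelihood F test, with Benjamini-Hochberg adjustment over all genes tested (14183 and 15704) and a threshold of 0.05. The SE of a log2 difference was the absolute difference divided by the square root of its F statistic. CPM are TMM-scaled within a run. Counts of any pair of libraries in a group differed beyond sampling noise (chi-square over degrees of freedom at least 8.91), so none were copies of the same library. Pairs across groups were not examined, and the check cannot detect separate libraries made from the same tumor. The procedure was tested on simulated data. Values and plots used Python 3.11.15, pandas 2.3.3, scipy 1.17.1 and matplotlib 3.10.9, and promoters came from RefSeq on GRCm38.p6.

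The 10 genes, the other lists and the marker lists were chosen with earlier results of these data known. The text names all 10 genes, up to 4 called genes of each other non-marker list and comparison by smallest adjusted p, and the 8 genes most like Eln. Alternatives were DESeq2 1.42.0 size factors and Wald test, a filter at a mean of 1 CPM, no filter, limma 3.58.1 on log2(TPM + 1) and log2(TPM + 0.1), only the groups compared, all 40 libraries with or without separate means per run, structural RNAs left out, host tissue scores as covariates, and fits without C0479 and C0484. Leaving out each library in turn was extended to all libraries after the data were seen.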

Additional observations from a re-analysis of the deposited data

Results flagged for a closer look

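In the anti-PD-L1 group Lox was highest in library C0478 at 532 CPM, where the group median was 205 CPM, and its gap to the next library was 0.529 of the group's range on the log2(CPM + 1) scale. Of 50 combinations of gene, group and run examined for such a library it was the 1 that stood out. Chance alone gives such a library in about 1 in 20 combinations, so 1 of 50 is no more than chance gives.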

How the results depend on the processing

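No paired analysis was possible because the labels give the groups no shared replicate numbers. The fit of libraries C0449 to C0464 holds only the groups compared, so that alternative gives nothing more there. Of the 10 elastic fiber genes 0 were called in the trap control comparisons and in bifunctional against trap control under every alternative run except the fit of all 40 libraries with runs pooled, which called 1 (Eln at 1.27) in trap control against isotype control and 8 in bifunctional against trap control; that fit mixes the runs. In bifunctional against anti-PD-L1, whose results chose the genes, the number past the threshold is a description from which nothing is read. It was 5 of 10 beside 4014 of 15704 genes (25.6%, with 12.4% higher), 2 beside 760 without C0479 and C0484 and 1 beside 816 with host tissue scores as covariates. When 1 library was left out it was 4 to 8 beside 2141 to 5242, with 8 without C0478. It was 4 with no filter, 6 by DESeq2, by limma with log2(TPM + 1) and with a mean per group and run, and 7 with log2(TPM + 0.1). The numbers over all genes in these last fits are not given here, so these counts have no share to be set against.

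The count of genes called in trap control against isotype control (1041) was 400 with no filter, 45 with host tissue scores, 1576 with a mean per group and run, 4213 with runs pooled, 1713 by DESeq2, 0 by limma with log2(TPM + 1) and 0 with log2(TPM + 0.1), and 421 to 1381 without single libraries, with 421 to 616 without C0450, C0451, C0452, C0453, C0454, C0458, C0459, C0460, C0462 or C0464. In trap control against anti-PD-L1 (2) it was 0 with no filter, with host tissue scores, with only the groups compared, with either TPM scale and without C0479 and C0484, 1 with a mean per group and run, 6697 with runs pooled, and 0 to 2 without single libraries (2 without C0466, C0473 or C0475, 1 without C0468 and 0 without any other). In bifunctional against trap control (1) it was 0 with no filter, with only the groups compared, with a mean per group and run, with either TPM scale and without C0479 and C0484, 4 with host tissue scores, 5070 with runs pooled, 214 by DESeq2, and 0 to 176 without single libraries, with 176 without C0482, 16 without C0483, 2 without C0465 or C0480 and 0 without any other. In bifunctional against anti-PD-L1 (4014) it was 816 with host tissue scores, 1970 with runs pooled, 760 without C0479 and C0484, and 2141 to 5242 without single libraries, with 2141 without C0479 and 2172 without C0484. The cause was not tested.

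Of 1380 log2 differences of single genes under alternatives 45 changed sign. In trap control against isotype control these were Fbln1 at −0.0053 with no filter, −0.079 with log2(TPM + 0.1) and −0.29 to 0.17 without single libraries; Fbln2 at −0.037 and −0.042 in TPM and −0.062 to 0.096 without single libraries; Mfap4 at 0.083 and 0.045 in TPM, and −0.53 to 0.039 without single libraries; and, with runs pooled, Fbn1 at 0.56, Fbn2 at 0.63, Mfap4 at 1.05 and Mfap5 at 0.46. In trap control against anti-PD-L1, pooling gave Fbln1 at −0.10, Fbln5 at −0.060, Fbn1 at −0.74, Fbn2 at −0.36, Emilin1 at 0.36, Mfap5 at −0.71 and Lox at −0.086. Host tissue scores gave Fbln5 at −0.086, Fbn1 at −0.21 and Mfap5 at −0.14, and leaving out 1 library gave Fbln5 −0.24 to 0.59, Fbn1 −0.25 to 0.42, Fbn2 −0.045 to 0.86 and Mfap5 −0.14 to 0.23, each lowest without trap control C0467. In bifunctional against trap control Fbln2 was at 0.092 with runs pooled, 0.13 in both TPM scales and −0.13 to 0.050 without single libraries, Emilin1 at −0.063 with runs pooled and Lox at −0.028 without C0479 and C0484. In the first run Fbn2, Eln and Mfap4 rest on as few as 4, 13 and 6 counts in a library, which limits what small differences can be seen there. These counts are all from the trap control library C0459, which had the highest structural RNA level of that run by CPM. C0459 was also the lowest trap control library of the run by CPM for Fbln1, Fbln2, Fbln5 and Lox.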
